A study of Homo sapiens and Mus musculus with 8 samples.

Results

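B16N is a mouse melanoma line, and the library described here came from a single clone of it, O1C44, that had been made to overexpress Orai1. Per the labels, the cells were transfected with a wild-type Orai1 carrying the fluorescent protein tag CFP, selected with the antibiotic G418, sorted by FACS and then grown as individual clones. The clone was compared with untreated wild-type B16N cells, and both libraries carried the time label day 0. No label says that the control cells had passed through transfection, selection, sorting or cloning, so the channel, the selection and the choice of a single cell cannot be told apart in this comparison. All rows with a gene symbol and a p-value in the authors' table of this comparison were used, 15041 of 15966 symbols found over the 3 mouse tables of the series. The whole series held 8 RNA-seq samples of 3 melanoma lines with 1 sample per group, and its title names the suppression of Ca2+ signalling in melanoma progression. The other B16N samples were wild-type cells kept under UV exposure, sampled at week 2 and at week 5.

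Orai1 is the pore-forming subunit of the store-operated Ca2+ channel of the plasma membrane. When the Ca2+ store of the endoplasmic reticulum is emptied through inositol trisphosphate receptors, the STIM proteins of the store membrane sense the loss and open Orai channels at contact sites with the plasma membrane. The Ca2+ that enters refills the store and activates calmodulin and the phosphatase calcineurin, which dephosphorylates NFAT transcription factors and lets them enter the nucleus. In pigment cells, Ca2+ entering through this route has been linked to melanin synthesis, and in melanoma to the balance between growth and invasion.

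The authors' table used here gives a log2 fold change, a test statistic and a p-value per gene. Counts and levels were not analysed, so neither the depth nor the level of a gene in either library is known here. Values below are log2 changes of the clone against the control, with a standard error (SE) taken from the deposited statistic, and a positive value means higher in the clone. A gene was called when its p, adjusted by the Benjamini-Hochberg method over all 15041 rows, was under 0.05. With 1 library in each group these p-values compare 2 libraries, and no difference has a replicate check. For a gene of SE above 1 only the direction and the adjusted p are printed, without a fold. Of the 15041 symbols, 4382 had exactly the values of another symbol, for example Vegfa and Vwf, or Bcl2, Rsph3a and Rsph3b. Such values cannot be assigned to a gene, and these symbols are counted among all genes but left out of the gene lists, which leaves 10659 with values of their own. Orai1 itself was not analysed here, so the overexpression named in the labels was not checked.

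The clone differed from its parental line across a large part of the transcriptome. In all, 3305 genes were called, 1553 higher (10.3% of all rows) and 1752 lower (11.6%). At least 2-fold changes were found for 1021 of them, 581 higher (3.86%) and 440 lower (2.93%). Counting only symbols with their own values, 1276 were higher (12.0%) and 1481 lower (13.9%), and with the 2-fold minimum 470 were higher (4.41%) and 360 lower (3.38%). Of these 830, 114 had an SE above 1, 85 of them higher in the clone. Counts of called list members below are to be read against the shares of 12.0% higher and 13.9% lower. These shares include genes of large SE, which are seldom called. Among the 6577 genes of SE at most 0.5 with a human gene of the same name, 14.5% were higher and 18.4% lower. Lists of precisely measured genes are better read against the latter. With the median change of genes of SE at most 0.3 (-0.019) set to 0, the called genes were split evenly, 1671 higher and 1664 lower, and the 2-fold counts were 600 and 425. Among rows of SE at most 0.3, taken alone, 449 passed the 2-fold rule, 208 higher and 241 lower. Among called genes, those nearest to the 2-fold minimum were Mdh1 (1.0002) and Tlr1 (1.001) just inside it and Marchf2 (-0.9987) and Erbb3 (-0.9988) just outside it in the authors' deposited table. For the adjusted p, among genes of at least 2-fold, Slc4a8 (0.047) and Bcas1 (0.0498) lay just inside, and Rpl28 (0.0505) and Mtx3 (0.0517) just outside.

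The smallest p-value of the comparison belonged to Gjb2, which encodes the gap junction protein connexin 26. By the authors' deposited table its log2 level in the clone was 5.13 above the control (SE 0.14, 95% interval 4.86 to 5.398, adjusted p = 4.66e-298), a 35-fold difference. Other rises with small p-values were those of the matricellular protein gene Ccn1 (2.22, SE 0.1003), the cell-surface proteoglycan gene Sdc2 (2.59, SE 0.14) and the Notch-induced repressor gene Hes1 (2.83, SE 0.16) in the authors' deposited table. The glycogenin gene Gyg (1.56, SE 0.104), the transcription elongation factor gene Tcea1 (1.54, SE 0.11) and the interferon-induced gene Samd9l (2.93, SE 0.21) followed in the authors' deposited table. Led by size of fit, with an SE of at most 1, the rises in the authors' deposited table included the glycosyltransferase gene B4galnt2 (9.86, SE 0.84), the exchange factor gene Arhgef15 (8.52, SE 0.73), the basement membrane collagen gene Col4a1 (7.47, SE 0.61) and the developmental regulator gene Eya1 (6.16, SE 0.62). Without levels, fits of this size give no bound on the true fold. The rest of the 15 largest rises were Dusp27 (5.96, SE 0.55), the AP-1 gene Fosb (5.55, SE 0.67), Nap1l3 (4.94, SE 0.91), the tubulin gene Tuba4a (4.79, SE 0.48), the carbonyl reductase gene Cbr1 (4.66, SE 0.33), the quinone reductase gene Nqo1 (4.57, SE 0.66), Zfp13 (4.503, SE 0.54), Ankrd6 (4.48, SE 0.73), Nlrp10 (4.45, SE 0.94) and Plekha2 (4.27, SE 0.63) in the authors' deposited table.

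Among the falls, the chemokine gene Cxcl10 had the smallest p-value, and the authors' deposited table put its log2 change at -4.89 (SE 0.15, 95% interval -5.19 to -4.59, adjusted p = 7.82e-220). The cGMP-dependent kinase gene Prkg2 (-4.45, SE 0.16), the protease gene Prss23 (-2.25, SE 0.082) and the adhesion molecule gene Flrt3 (-3.68, SE 0.13) came next in the authors' deposited table. Further falls of very small p were those of Eid1 (-2.03, SE 0.088), whose product holds back the coactivator EP300, the Myc relative Bmyc (-4.05, SE 0.2001), Carhsp1 (-2.16, SE 0.11), and the connexin gene Gjc3 (-2.15, SE 0.12) in the authors' deposited table. Connexin genes thus stood at both ends of the comparison, Gjb2 higher and Gjc3 lower. By size of fit, the falls in the authors' deposited table were led by Xlr3a (-8.05, SE 0.74), an X-linked gene of the Xlr family, and Nfatc2 (-6.66, SE 0.33). For these falls too, fits of this size give no bound on the true fold without levels. The rest of the 15 largest were Lcmt2 (-4.86, SE 0.38), Zfp469 (-4.83, SE 0.3999), the glypican gene Gpc6 (-4.56, SE 0.48), the growth factor gene Tgfb1 (-4.44, SE 0.88), the cofilin phosphatase gene Ssh3 (-4.35, SE 0.79), Eda2r (-4.34, SE 0.51), the proteoglycan-related genes Xylt1 (-4.34, SE just under 1) and Bcan (-4.18, SE 0.63), Tubb2a-ps2 (-4.23, SE 0.57) and Klhdc7a (-4.16, SE 0.52) in the authors' deposited table. On the plot of all genes, the few points with the smallest adjusted p-values stand far above a dense body of smaller changes.

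**Figure D1:**
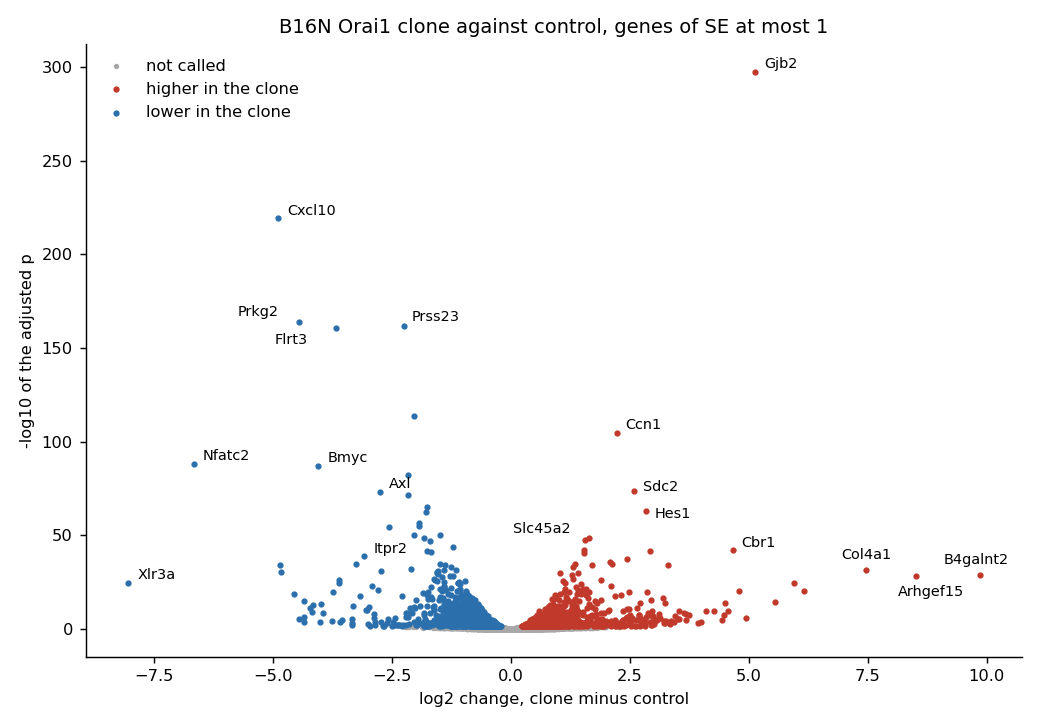
Each point is a gene with values of its own and an SE of at most 1. The horizontal axis gives the log2 change of the clone minus the control and the vertical axis the negative log10 of the adjusted p; red points were called higher in the clone, blue points lower, and grey points not called. Gjb2 stands highest on the right at 5.13, and Cxcl10 highest on the left at -4.89.

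Of the 12 genes of the list of store-operated Ca2+ entry, 9 had a row and 7 a value of their own, and 1 of the 7 was called, Orai2, another channel subunit of the family, for which the authors' deposited table gave a rise of 0.56 (SE 0.13, 95% interval 0.31 to 0.82, adjusted p = 1.39e-04). The store sensor Stim2 stood at 0.29 (SE 0.33), with an interval of -0.36 to 0.93, and Saraf, whose product slows the channel, at -0.24 (SE 0.15) in the authors' deposited table. Stimate (0.35, SE 0.34), Esyt1 (0.399, SE 0.28) and Esyt2 (-0.23, SE 0.35), which encode proteins of the contact sites between store and plasma membrane, were not called in the authors' deposited table. Cracr2a, a regulator of Orai channels, had an SE above 1 and an adjusted p = 0.804 from the authors' deposited table. Stim1 and Cracr2b shared their values with other symbols.

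The release side of the Ca2+ store showed a single large change. Itpr2, which encodes the type 2 inositol trisphosphate receptor, was lower, and the authors' deposited table put its log2 change at -3.08 (SE 0.23, 95% interval -3.52 to -2.64, adjusted p = 1.43e-39). The other receptor genes were not called, with Itpr1 at 0.89 (SE 0.47) and Itpr3 at -0.71 (SE 0.91) in the authors' deposited table, and their intervals of -0.035 to 1.82 and -2.48 to 1.07 are wide. Of 12 measured genes of store release and pumps, 1 was higher and 3 lower. The higher one was Slc24a5 (1.53, SE 0.11), the K+-dependent Na+/Ca2+ exchanger of the melanosome, and the other falls were those of the Golgi Ca2+ pump gene Atp2c1 (-0.63, SE 0.16) and of Itpripl2 (-0.57, SE 0.12) in the authors' deposited table. The plasma membrane pump genes Atp2b1 (0.73, SE 0.65) and Atp2b4 (1.197, SE 0.76) were not called in that deposited table. In the list of mitochondrial Ca2+ uptake, 1 of 10 genes was higher, the outer membrane channel gene Vdac2 (0.72, SE 0.14), and 1 lower, the uniporter regulator gene Micu3 (-1.48, SE 0.54), in the authors' deposited table. The uniporter pore gene Mcu was at 0.22 (SE 0.17) and was not called in the authors' deposited table. Of 12 other Ca2+-permeable channels, Trpm7 (-0.43, SE 0.12) and the mechanosensitive channel gene Tmem63b (-0.4999, SE 0.16) fell and the ATP-gated channel gene P2rx5 was higher with an SE above 1 (adjusted p = 0.0116) in the authors' deposited table. Among 7 potassium channels the mechano-gated potassium channel gene Kcnk2 (-1.57, SE 0.38) fell in the authors' deposited table.

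Downstream of Ca2+ entry, the calcineurin and NFAT list had 1 of 13 measured genes higher and 4 lower, against 12.0% and 13.9% of all genes. The other 8 were not called, and the median of the list was 0.24, above the 0.033 of all genes with values of their own. Nfatc2, which encodes the NFAT1 transcription factor, was lower, with a log2 change of -6.66 by the authors' deposited table (SE 0.33, 95% interval -7.303 to -6.02, adjusted p = 7.20e-89). Without levels, that interval covers only the SE of the deposited test and does not bound the true fold. Nfatc1 (-1.36, SE 0.42) fell as well in the authors' deposited table, while Nfatc3 (0.705, SE 0.33) and Nfat5 (1.42, SE 0.57) were not called (adjusted p = 0.127 and 0.0552). Rcan1, an inhibitor of calcineurin that is itself a widely used NFAT target, fell by 0.38 by the authors' deposited table (SE 0.11, adjusted p = 0.00647). DYRK kinases phosphorylate NFAT and favour its export from the nucleus, and their genes went opposite ways in the authors' deposited table, Dyrk1a (-1.37, SE 0.19) lower and Dyrk2 (0.75, SE 0.16) higher. The calcineurin subunit genes Ppp3ca (0.069, SE 0.401) and Ppp3cc (0.51, SE 0.28) were not called in the authors' deposited table. Of 17 calmodulin and CaM kinase genes 2 rose and 2 fell, and the calmodulin gene Calm2 (0.087, SE 0.094) was not among them in the authors' deposited table. The largest changes there were the fall of Camkk2 (-1.26, SE 0.12), the kinase that activates CaM kinases and AMPK, and the rise of the calmodulin-binding transcription activator gene Camta2 (1.07, SE 0.26) in the authors' deposited table.

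**Figure D2:**
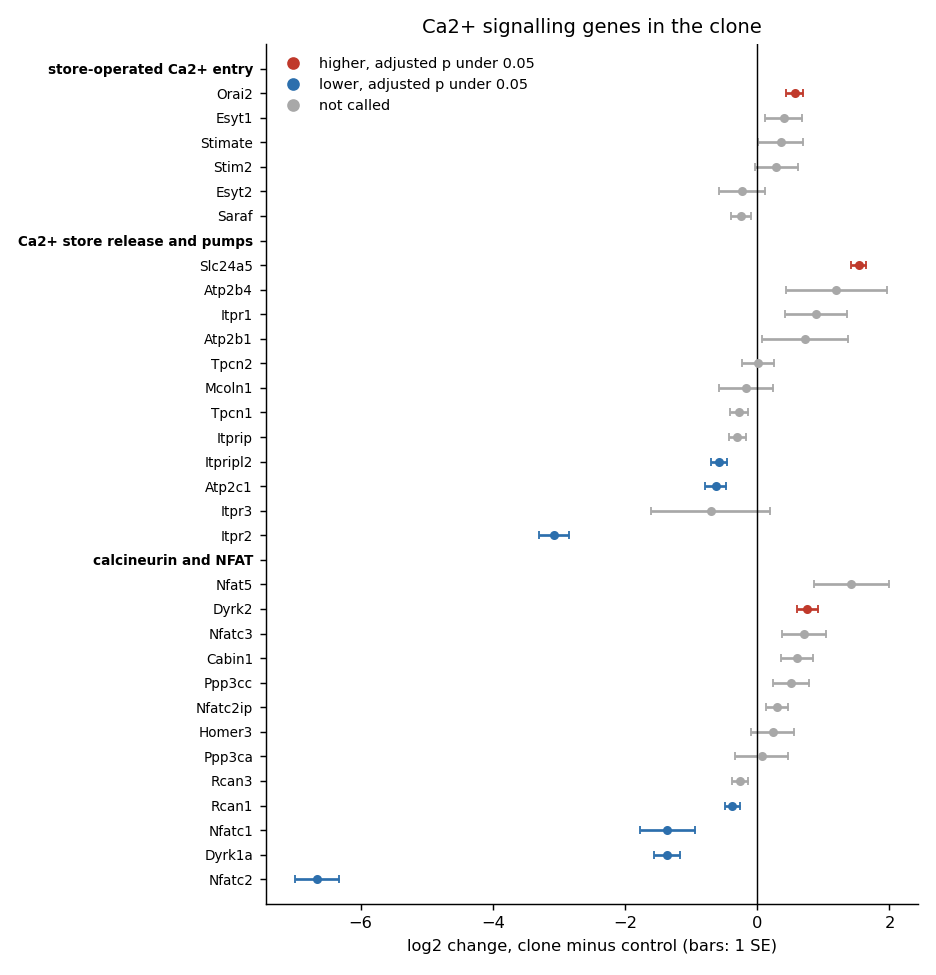
Log2 change of the clone minus the control for measured genes of 3 Ca2+ lists with an SE of at most 1, with bars of 1 SE; red and blue mark genes called higher and lower, grey those not called. Itpr2 (-3.08) and Nfatc2 (-6.66) lie far to the left of the other genes, and Orai2 (0.56) is the called gene of the store-operated list.

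Among Ca2+-binding proteins, the list of calpains and other Ca2+ effectors had 9 of 17 measured genes higher and 1 lower, with a median of 0.44 against 0.033 for all genes with values of their own. The Ca2+-activated protease gene Capn1 (2.07, SE 0.29) and its relative Capn6 (3.12, SE 0.51) rose, as did the mitochondrial EF-hand gene Efhd1 (2.41, SE 0.74) in the authors' deposited table. Smaller rises in that deposited table were those of Hpcal1 (1.29, SE 0.33), the integrin-binding EF-hand gene Cib1 (0.94, SE 0.299), Pdcd6 (0.44, SE 0.14) and the calpain small subunit gene Capns1 (0.29, SE 0.098), while the synaptotagmin relative Syt11 (-0.64, SE 0.13) fell. The S100 and annexin list had 2 of 12 genes higher and 5 lower. S100b (-1.68, SE 0.16), a marker of the melanocyte lineage, Anxa4 (-0.97, SE 0.14), Anxa2 (-0.88, SE 0.13) and its partner S100a10 (-0.798, SE 0.14) fell, and S100a1 (1.03, SE 0.16) and S100a6 (0.89, SE 0.32) rose in the authors' deposited table. Among 16 phospholipase C and protein kinase C genes 4 were higher, among them Plch1 (1.504, SE 0.39) and Prkca (0.49, SE 0.18) in the authors' deposited table, with Rasgrp3 (adjusted p = 0.00875) and Prkd2 (adjusted p = 0.0321) at an SE above 1. The protein kinase C theta gene Prkcq (-0.67, SE 0.23) was the lower one in the authors' deposited table.

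Immediate early genes are induced within minutes by Ca2+, growth factor and stress signals, and their AP-1 proteins act as partners of NFAT on DNA. Of 24 measured genes of this list, 12 were higher and 4 lower, with a median of 0.51. Fosb (5.55, SE 0.67), Fos (1.96, SE 0.299), Nr4a1 (1.53, SE 0.42), Junb (1.48, SE 0.14) and the mRNA decay gene Zfp36 (0.99, SE 0.21) rose in the authors' deposited table, and the AP-1 partner Batf was higher with an SE above 1 (adjusted p = 1.92e-04). Srf (0.53, SE 0.11), the serum response factor gene, Ier2 (0.62, SE 0.11), Ier3 (0.49, SE 0.15) and Ier5 (0.58, SE 0.12) rose by less in the authors' deposited table. The lower genes were Myc (-0.87, SE 0.13), Nr4a2 (-0.83, SE 0.297), Jund (-0.78, SE 0.11) and Jun (-0.51, SE 0.11) in the authors' deposited table. The 2 Fos members and Junb thus rose while Jun and Jund fell. Members of the Hippo and YAP list went both ways, with 5 of 30 higher and 7 lower. The YAP target genes Ccn1 (2.22, SE 0.1003) and Ccn2 (0.86, SE 0.33) and the YAP-binding protein gene Amot (2.32, SE 0.25) were higher, and the target gene Axl (-2.75, SE 0.15), the scaffold gene Sav1 (-0.51, SE 0.0998) and the kinase gene Lats2 (-0.39, SE 0.14) lower, in the authors' deposited table.

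Called genes were mainly lower in the inflammatory list and mainly higher in the interferon list. In the list of NF-kB, chemokine and cytokine genes 9 of 18 measured members were lower and 2 higher, with a median of -0.54. Beside Cxcl10, the chemokine gene Ccl5 (-3.32, SE 0.43) and the cytokine gene Tgfb2 (-1.92, SE 0.25) fell in the authors' deposited table, and Birc3 was lower with an SE above 1 (adjusted p = 0.00203). Genes of the NF-kB factors and their inhibitors were lower too in the authors' deposited table, namely Nfkb1 (-0.69, SE 0.12), Relb (-0.702, SE 0.23), Nfkbie (-0.77, SE 0.21) and Nfkbia (-0.63, SE 0.198). The higher members were the macrophage inhibitory factor gene Mif (1.26, SE 0.18) and Tnip1 (0.38, SE 0.14), an inhibitor of NF-kB signalling, in the authors' deposited table. After 2 weeks of UV, against the same control library, 6 of the same 18 were lower and none higher, again with a median of -0.54. After 5 weeks of UV 1 of 17 was higher and none lower, with a median of -0.14. Fewer genes were called in the UV samples as a whole. Among genes of SE at most 0.5 with a human gene of the same name, 4.3% were higher and 7.7% lower at 2 weeks. At 5 weeks these shares were 3.8% and 3.1%, against 14.5% and 18.4% in the clone. In the clone, 10 of 28 measured genes of the interferon response were higher and 1 lower, with a median of 0.62. Cxcl10 and Ccl5 are counted in the inflammatory list and not in this one, so the split between the lists depends on where genes were filed. The double-stranded RNA sensor genes Ifih1 (2.94, SE 0.93) and Ddx58 (1.09, SE 0.21), the ubiquitin ligase gene Dtx3l (2.84, SE 0.498), Parp14 (2.33, SE 0.52), the guanylate-binding protein gene Gbp2 (1.88, SE 0.54) and the membrane protein gene Ifitm3 (1.78, SE 0.25) rose in the authors' deposited table. Rsad2 (0.79, SE 0.19), Isg15 (0.75, SE 0.26) and Eif2ak2 (0.49, SE 0.15) rose by less, and the DNA sensor gene Cgas (-1.16, SE 0.1998) fell in the authors' deposited table. Antigen presentation had 3 of 15 genes higher and none lower, the peptide transporter gene Tap1 (2.62, SE 0.91), the proteasome activator gene Psme1 (0.62, SE 0.15) and, with an SE above 1, H2-DMb1 (adjusted p = 2.52e-09) in the authors' deposited table.

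Pigment cell identity was read from the genes of the melanosome. The list of melanin synthesis and melanosome genes had 9 of 19 members higher and 2 lower, with a median of 0.36. By p-value, melanosome transporter genes led the rises, Slc45a2 by 1.64 (SE 0.11, adjusted p = 2.92e-49) and Slc24a5 by 1.53 (SE 0.11, adjusted p = 2.47e-41), by the authors' deposited table. The melanosome fibril gene Pmel (0.92, SE 0.098), its partner Mlana (0.502, SE 0.11), the melanosome receptor gene Gpr143 (0.91, SE 0.16) and the transport gene Rab27a (1.88, SE 0.51) rose as well, and Oca2 was higher with an SE above 1 (adjusted p = 6.75e-04), in the authors' deposited table. The genes of the pathway's enzymes gave other values. Tyr, the rate-limiting enzyme gene, stood at 0.12 (SE 0.14, 95% interval -0.15 to 0.38) and Tyrp1 at 0.18 (SE 0.11), neither called, and the dopachrome tautomerase gene Dct (-0.61, SE 0.092) fell in the authors' deposited table. Rab32, which carries enzymes to the melanosome, fell by 1.48 (SE 0.12) in the authors' deposited table.

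Of 14 melanocyte lineage regulators 2 were higher and 4 lower. The master regulator Mitf was at 0.39 (SE 0.49) in the authors' deposited table, with an interval of -0.57 to 1.34 that takes in a rise of 2-fold, and Sox10 shared its values with another symbol. The mitochondrial coactivator gene Ppargc1a (-2.93, SE 0.28), the melanocortin receptor gene Mc1r (-1.06, SE 0.099), Zeb2 (-0.6000, SE 0.12) and Pax3 (-0.51, SE 0.103) fell, while Rragd (1.38, SE 0.25) and Ets1 (0.76, SE 0.11) rose in the authors' deposited table. The list of epithelial-mesenchymal and phenotype switch genes had 5 of 13 lower and none higher. Pou3f2 (-2.89, SE 0.54), which encodes the neural factor BRN2, the adhesion molecule genes Mcam (-1.61, SE 0.14) and Cd44 (-0.57, SE 0.096), and Axl (-2.75, SE 0.15) were lower in the authors' deposited table, beside Zeb2 (-0.6000, SE 0.12), which is also counted among the lineage regulators above. With shared symbols kept, 10 members were lower and 1 higher, but the added values cannot be assigned to a gene. Keeping them moved other lists too, for example p53 targets to 6 higher in place of 3. Axl, a receptor tyrosine kinase, had an adjusted p of 6.51e-74. Few markers of other cell types had a value of their own. Of 20 leukocyte markers 7 had a row, and 6 of these shared their values with other symbols. The other 1, the lysozyme gene Lyz2 (2.78, SE 0.64), rose in the authors' deposited table. Of 11 endothelial markers 5 had a row, 4 of them with shared values, and the other 1 was not called. Of 11 fibroblast markers 3 were measured and Postn (-2.85, SE 0.86) fell by the authors' deposited table. None of the 12 epithelial markers had a value of its own, since the 3 with a row shared their values. The part of other cells in these results was not tested.

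Among genes that report the output of the MAPK pathway, falls outnumbered rises. Of 28 measured members 9 fell and 4 rose, with a median of -0.41. Cyclin D1, the cell cycle gene that growth factors induce, fell in the authors' deposited table (Ccnd1, -1.83, SE 0.12, adjusted p = 1.64e-49). The transcription factor gene Etv5 (-1.703, SE 0.26), the feedback inhibitor genes Spry4 (-1.47, SE 0.43) and Spry2 (-1.36, SE 0.18), and the phosphatase genes Dusp6 (-0.81, SE 0.12) and Dusp4 (-0.596, SE 0.15) fell too in the authors' deposited table. The rises were those of the nuclear phosphatase gene Dusp2 (2.19, SE 0.45), Spred2 (1.01, SE 0.33), Map2k2 (0.48, SE 0.13) and Hras (0.38, SE 0.13) in the authors' deposited table. Within the list of receptor tyrosine kinases and ligands, Axl (-2.75, SE 0.15) and Erbb3 (-0.999, SE 0.17) fell, and Pdgfc (adjusted p = 0.00654) and Ret (adjusted p = 0.0168) were higher at an SE above 1 in the authors' deposited table. Replication and mitosis genes had 6 of 32 higher and 4 lower, with a median of 0.045, and apart from Ccnd1 the called members moved by less than 2-fold, for example Cdc20 (0.62, SE 0.204), Mcm2 (0.48, SE 0.14), Ccnb1 (-0.45, SE 0.11) and Mcm4 (-0.59, SE 0.12) in the authors' deposited table.

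Sterol synthesis genes that passed were all higher in the clone. Of 24 measured genes 11 were higher and none lower, with a median of 0.40 and an unchanged count at an SE of at most 0.5. The gene of farnesyl diphosphate synthase rose most in the authors' deposited table (Fdps, 1.35, SE 0.15, adjusted p = 1.08e-16), followed by Mylip (1.22, SE 0.23), Insig1 (1.18, SE 0.14) and Idi1 (1.17, SE 0.28). Mylip encodes the ligase that degrades the LDL receptor and is induced by LXR, and Insig1 holds the sterol sensor SCAP in the endoplasmic reticulum, so these members do not act as synthesis enzymes. The enzyme genes Cyp51 (0.37, SE 0.0999) and Sqle (0.3005, SE 0.1000) rose by less in the authors' deposited table. Fatty acid synthesis genes had 2 of 19 higher and 3 lower, with Srebf1 (0.51, SE 0.16) among the higher and the triglyceride synthesis gene Dgat2 (-1.21, SE 0.32) among the lower in the authors' deposited table, and the cholesterol efflux list 0 of 11 higher and 2 lower.

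Glycolysis genes had 4 of 17 members lower and none higher, Pgk1 (-1.42, SE 0.16), Pfkp (-1.14, SE 0.18), Hk2 (-0.37, SE 0.14) and Hk1 (-0.35, SE 0.13), in the authors' deposited table, while the median of the list was 0.0012 and the glucose transporter gene Slc2a1 (0.301, SE 0.17) was not called. With changes centred, Hk1 was not called (-0.33). Hypoxia-responsive genes had 7 of 24 lower and 2 higher. The mitophagy gene Bnip3 (-1.005, SE 0.17), the HIF prolyl hydroxylase gene Egln1 (-1.003, SE 0.11), the endoplasmic reticulum oxidase gene Ero1a (-0.91, SE 0.104) and Ndrg1 (-0.59, SE 0.105) fell in the authors' deposited table. Bhlhe40 (0.69, SE 0.27) and, with an SE above 1, the carbonic anhydrase gene Car12 (adjusted p = 0.00284) were higher in the authors' deposited table. Nuclear genes of the respiratory chain went both ways, 7 of 41 higher and 8 lower, as did those encoded in mitochondrial DNA, 2 of 14 higher and 3 lower. The largest fall among respiratory subunits was that of Cox7b (-1.69, SE 0.11), and among rises that of Uqcrb (0.98, SE 0.15), in the authors' deposited table.

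The integrated stress and unfolded protein response list had 12 of 26 measured genes lower and 3 higher, with a median of -0.29. Trib3, a target of the stress factors ATF4 and CHOP, fell most (-2.11, SE 0.17, adjusted p = 1.19e-32), with the degradation gene Herpud1 (-1.13, SE 0.18) and the factor genes Atf5 (-1.05, SE 0.13), Cebpg (-0.83, SE 0.13) and Atf4 (-0.32, SE 0.11) also lower in the authors' deposited table. Chaperone genes of the endoplasmic reticulum fell by less, Pdia4 (-0.58, SE 0.095), Dnajc3 (-0.77, SE 0.24), Manf (-0.31, SE 0.103) and Hspa5 (-0.24, SE 0.089) among them, in the authors' deposited table. The unfolded protein response factor gene Xbp1 (1.39, SE 0.15), the phosphatase regulator gene Ppp1r15a (0.94, SE 0.25) and the sensor gene Atf6 (0.37, SE 0.11) rose in that deposited table. Amino acid genes that ATF4 induces were lower in part, Psat1 (-0.61, SE 0.086), Mthfd2 (-0.66, SE 0.093), Aldh18a1 (-1.05, SE 0.11) and Slc7a5 (-0.67, SE 0.12) in the authors' deposited table, and the serine and one-carbon list had 4 of 15 lower and 3 higher. Of 17 aminoacyl tRNA synthetases 6 were higher and 5 lower.

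NRF2 targets protect cells against oxidants, and 11 of 28 measured members were higher and 3 lower, with a median of 0.20. Nqo1 (4.57, SE 0.66), the glutathione synthesis gene Gclm (0.96, SE 0.18), the pentose phosphate genes Tkt (0.94, SE 0.102) and Taldo1 (0.51, SE 0.13) and the lipid peroxidase gene Gpx4 (0.71, SE 0.14) rose in the authors' deposited table. The gene of the factor itself, Nfe2l2 (-0.64, SE 0.088), fell with Gpx1 (-0.54, SE 0.0998) and Mt1 (-0.53, SE 0.098) in the authors' deposited table. After 5 weeks of UV 19 of the 28 were called higher and 1 lower, with a median of 0.76. The shares at 5 weeks over genes of SE at most 0.5 with a human gene of the same name were 3.8% and 3.1%. After 2 weeks 2 of 27 were higher and 2 lower. The clone was lower than 5 weeks of UV for 10 members and higher for 1. In the clone, lysosomal and autophagy genes had 8 of 31 higher and 5 lower. The cathepsin genes Ctsh (3.68, SE 0.59) and Ctsb (1.11, SE 0.11) and the proton pump gene Atp6v1h (1.8999, SE 0.17) were higher and Lamp2 (-0.599, SE 0.19) and Lamp1 (-0.41, SE 0.11) lower in the authors' deposited table. Heat shock genes had 5 of 20 higher and 5 lower, the small heat shock protein gene Hspb8 (3.19, SE 0.36) leading the rises and Hspa4 (-0.73, SE 0.0998) the falls in the authors' deposited table. Proteasome subunits had 4 of 21 higher and none lower, Psmd6 (0.87, SE 0.21) being the largest by the authors' deposited table. Of 18 p53 targets 3 were higher and 1 lower, Xpc (0.697, SE 0.17), Bax (0.56, SE 0.16), Mdm2 (0.35, SE 0.098) and Eda2r (-4.34, SE 0.51) in the authors' deposited table. DNA repair and checkpoint genes had 1 of 21 higher and 2 lower. In the BCL2 family list 2 of 13 were higher and 3 lower, with Mcl1 (0.596, SE 0.11) higher and Bcl2l1 (-0.82, SE 0.105) lower in the authors' deposited table. Ribosomal protein genes had 4 of 33 higher and 5 lower, shares close to those of all genes. Of 12 genes often used as stable controls, 2 were higher and 2 lower, and the authors' deposited table put Ppia (1.099, SE 0.23) and Pgk1 (-1.42, SE 0.16) at the ends.

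**Figure D3:**
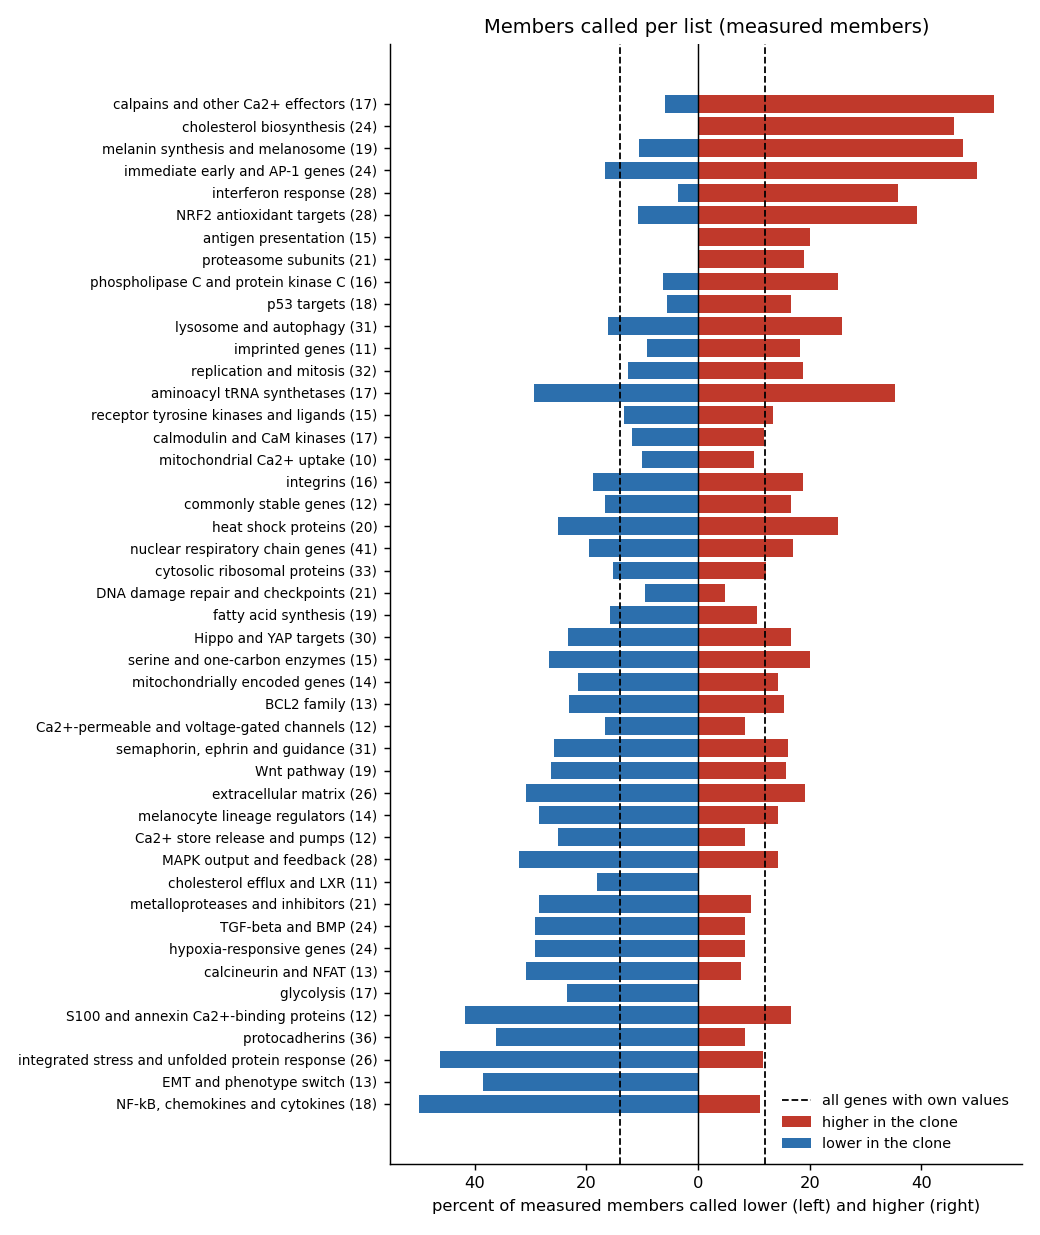
Percent of measured members called higher in the clone (red, to the right) and lower (blue, to the left) for each list with at least 10 measured members, whose number stands in brackets; dashed lines give the shares over all genes with values of their own, 12.0% and 13.9%. Calpains, sterol synthesis and immediate early genes reach far to the right, and NF-kB, phenotype switch and stress response genes far to the left.

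Genes that build the cell surface and its surroundings were read next. Of 26 extracellular matrix genes 5 were higher (19.2%) and 8 lower (30.8%), against 12.0% and 13.9% of all genes with values of their own. Of the collagen IV genes, which encode the network of basement membranes, the neighbours Col4a1 (7.47, SE 0.61) and, with an SE above 1, Col4a2 (adjusted p = 0.00203) were higher, as was the laminin gene Lamb1 (adjusted p = 0.0023), in the authors' deposited table. Another collagen IV gene, Col4a5 (-0.46, SE 0.24), was not called (adjusted p = 0.192) in the authors' deposited table. Among the lower genes were the collagen genes Col12a1 (-3.56, SE 0.74), Col6a1 (-3.34, SE 0.98), Col16a1 (-1.997, SE 0.65) and Col5a3 (-1.35, SE 0.23), the hyaluronan link protein gene Hapln1 (-2.99, SE 0.79) and periostin, Postn (-2.85, SE 0.86), in the authors' deposited table. At an SE of at most 0.5, 2 of the measured matrix genes were higher and 3 lower, so many of these changes rest on imprecise values. Of 16 integrin genes 3 rose and 3 fell, 18.8% each way. Itgb5 (-1.16, SE 0.17) and Itgb1 (-0.54, SE 0.13) were lower and Itga3 higher at an SE above 1 (adjusted p = 3.72e-07) in the authors' deposited table. Metalloproteases and inhibitors had 6 of 21 lower and 2 higher, among them Adamts1 (-1.78, SE 0.104), the inhibitor gene Timp2 (-0.97, SE 0.088) and Adam23 (-2.17, SE 0.39) lower and Adam15 (1.36, SE 0.24) higher in the authors' deposited table. In the TGF-beta and BMP list 7 of 24 genes were lower and 2 higher. The ligand genes Tgfb1 (-4.44, SE 0.88) and Tgfb2 (-1.92, SE 0.25) and the signal transducers Smad4 (-0.805, SE 0.12) and Smad1 (-0.76, SE 0.21) fell, and the receptor gene Tgfbr2 (0.63, SE 0.13) rose in the authors' deposited table.

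Protocadherins, adhesion proteins of the cadherin superfamily whose clustered genes are switched on in cell-specific combinations, were also measured. Of 36 measured members 13 were lower and 3 higher, with a median of -0.89. Within the beta cluster alone, Pcdhb12 (-2.86, SE 0.68), Pcdhb18 (-1.87, SE 0.47), Pcdhb20 (-1.77, SE 0.39), Pcdhb19 (-1.74, SE 0.48) and Pcdhb16 (-1.45, SE 0.16) fell, while Pcdhb4 (1.55, SE 0.44) and Pcdhb5 (1.34, SE 0.25) rose, in the authors' deposited table. Pcdh1, outside the clusters, was lower with an SE above 1 (adjusted p = 8.25e-13) in the authors' deposited table. The clustered genes resemble one another closely, and the counting behind these values could have divided reads between them, so single members are uncertain. Guidance genes had 5 of 31 members higher and 8 lower. The guidance ligand gene Slit2 (3.44, SE 0.59) rose and Robo2, a receptor gene for it, was higher with an SE above 1 (adjusted p = 1.85e-05), while the related receptor gene Robo1 (-1.17, SE 0.23), the semaphorin receptor gene Plxnc1 (-1.55, SE 0.14) and the ephrin receptor gene Ephb2 (-1.49, SE 0.41) fell in the authors' deposited table. In the Wnt list 3 of 19 genes rose and 5 fell, with Dkk3 (3.01, SE 0.84), Fzd9 (1.89, SE 0.29) and the ligand gene Wnt5b (1.61, SE 0.42) higher and Tcf7l1 (-1.25, SE 0.18) and the co-receptor gene Lrp6 (-0.93, SE 0.13) lower in the authors' deposited table.

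Called genes were next placed by chromosome. No mouse annotation was used here, so genes were placed by the human gene of the same name in the RefSeq annotation of GRCh38.p14, and neighbourhoods below are those of the human namesakes. Of 7708 genes with values of their own and an SE of at most 0.5, 6577 (85.3%) found a protein-coding namesake, and of these 14.5% were higher and 18.4% lower. The gene content of the X chromosome is largely kept among mammals, while the order of genes is not. The 195 genes with an X-linked namesake had a median change of -0.44 in the clone, with 25 higher and 85 (43.6%) lower, against a median of 0.015 and 17.6% lower for the 6382 other genes. In the UV samples the medians of X-namesake genes were -0.065 at 2 weeks and 0.024 at 5 weeks, measured against the control that all 3 comparisons share. At an SE of at most 0.3 the median of the X-namesake genes in the clone was -0.51.

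Along the order of the human namesakes, called genes lay mainly in long stretches with mostly the same direction. These 7 stretches were drawn by eye after the values were seen, so their medians describe the pattern and test nothing. They hold 185 of the 195 genes, and of the 10 left out 2 were higher and 3 lower. The 2 higher ones, Apln (2.88, SE 0.44) and Elf4 (1.22, SE 0.22), lay between the falling stretches that end at Thoc2 and begin at Rap2c, in the authors' deposited table. From Amer1 to Taf9b, 23 of 30 genes were lower and 1 higher, with a median of -0.78, and this stretch held the chromatin remodelling gene Atrx (-1.92, SE 0.12), the ubiquitin ligase gene Rlim (-1.77, SE 0.101), Cox7b (-1.69, SE 0.11) and Pgk1 (-1.42, SE 0.16) in the authors' deposited table. The glycolytic gene Pgk1 and the respiratory gene Cox7b named above are therefore counted in this stretch as well as in their lists. From Rap2c to Rab39b, 30 of 46 genes were lower and none higher (median -0.62), from Zfx to Usp27x 17 of 39 were lower and none higher (-0.60), and from Pls3 to Thoc2 10 of 14 were lower and 1 higher (-0.72). Between these, from Gspt2 to Nbdy, 7 of 13 genes were higher and none lower (median 0.54), and from Hmgn5 to Luzp4 9 of 21 were higher and 1 lower (0.42), among them Sytl4 (3.24, SE 0.397), Amot (2.32, SE 0.25) and Morc4 (1.19, SE 0.204) in the authors' deposited table. Over the last of the 7, from Crlf2 to Acot9, 5 of 22 genes were higher and 1 lower (median 0.14). The medians of the same stretches in the UV samples lay between -0.15 and -0.024 at 2 weeks and between -0.10 and 0.29 at 5 weeks.

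**Figure D4:**
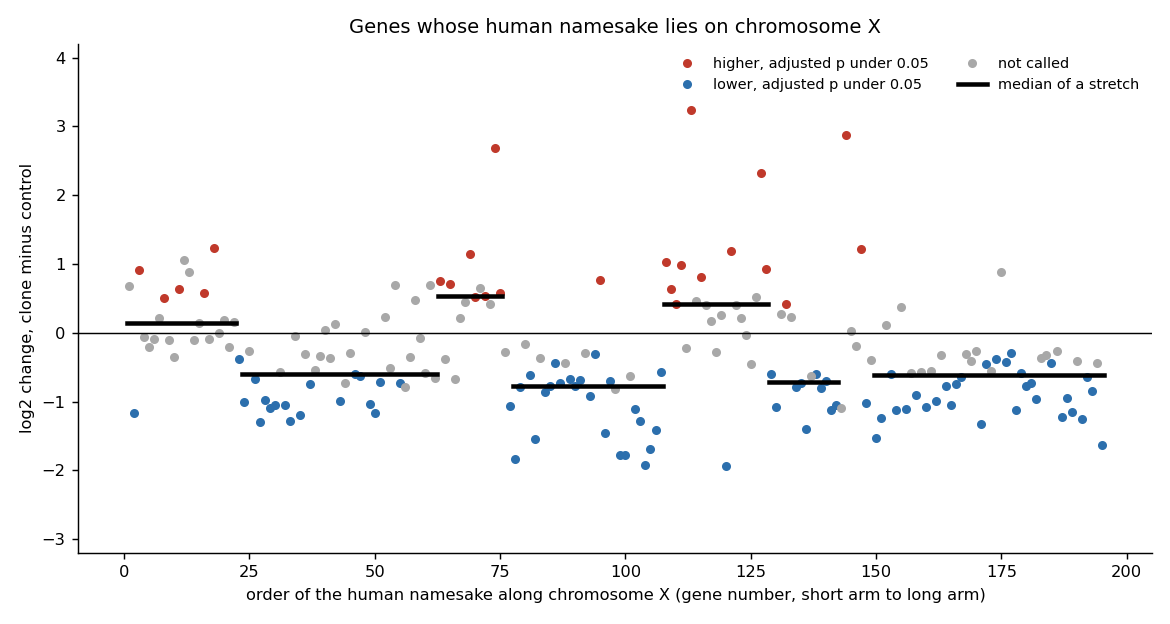
Log2 change of the clone minus the control (vertical axis) for the 195 genes of SE at most 0.5 with a human namesake on chromosome X, in the order of the namesakes along the chromosome (horizontal axis). Red and blue points were called higher and lower, grey points not called, and black lines give the medians of the stretches, which lie between about -0.78 and 0.54.

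Runs of 50 neighbouring genes on the other chromosomes of the human namesakes also included runs in which called genes had mainly the same direction. The lowest medians outside the X chromosome were those of the run from Rcbtb1 to Ing1 on chromosome 13 (-0.58, with 27 of 50 genes lower and 0 higher) and from Fam168b to Wipf1 on chromosome 2 (-0.54, with 25 lower and 3 higher). The highest were those from Cers2 to Khdc4 on chromosome 1 (0.55, with 24 higher and 4 lower), from Brd9 to Plpp1 on chromosome 5 (0.50, with 25 higher and 1 lower), from Qsox1 to Slc41a1 on chromosome 1 (0.47, with 26 higher and 4 lower) and from Trim16 to Spag5 on chromosome 17 (0.47, with 22 higher and 3 lower). Over all 5449 overlapping runs the medians in the clone spanned -0.63 to 0.55. In the UV samples they spanned -0.19 to 0.22 at 2 weeks and -0.30 to 0.35 at 5 weeks. The cause of this pattern was not tested.

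The clone was also set beside the UV samples. The 3 comparisons share the control library, so the change of the clone was compared with each UV change gene by gene, a difference in which the level of the control cancels. Of 10218 genes that both tables list without shared values, 536 (5.25%) were higher and 815 (7.98%) lower in the clone than after 2 weeks of UV by a normal test of the difference. Against 5 weeks of UV 153 of 10278 (1.49%) were higher and 482 (4.69%) lower. This test adds the variance of the control library in both SE. The control's variance cancels in the difference, and 0.5 of each squared SE would allow for that only if all libraries had equal variance. At that setting 1178 were higher and 1458 lower than after 2 weeks, and 553 higher and 1004 lower than after 5 weeks. The counts and p-values below are from the test with both SE added unless stated. Nfatc2 stood at -6.66 in the clone, -0.086 after 2 weeks and -0.25 after 5 weeks of UV, and the clone differed from both (adjusted p = 1.45e-78 and 5.78e-65), in the authors' deposited tables. Itpr2 was at -3.08 in the clone, -0.052 after 2 weeks and 1.797 after 5 weeks of UV in the authors' deposited tables, where the rise at 5 weeks was called (adjusted p = 1.48e-15). Orai2 was higher in the clone than after 2 weeks of UV (difference 0.61, SE 0.18, adjusted p = 0.00903), while its difference from 5 weeks was 0.074 (SE 0.2004, adjusted p = 0.99) in the authors' deposited tables. Gjb2, Hes1, Sdc2 and Junb were higher in the clone than at either UV time, and Cxcl10, Ccl5, Axl, Ccnd1, Ppargc1a and Prkg2 lower, with adjusted p-values from 4.16e-138 for Prkg2 at 2 weeks to 0.00137 for Ccnd1 at 5 weeks in the authors' deposited tables.

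Of 18 compared pigment genes 4 were higher and 4 lower in the clone than after 2 weeks of UV, and 2 higher and 3 lower than after 5 weeks. With 0.5 of each squared SE these counts were 6 and 6 at 2 weeks and 5 and 4 at 5 weeks. Slc45a2 was at 1.64 in the clone, 0.84 after 2 weeks and 0.71 after 5 weeks of UV, higher in the clone than in either (adjusted p = 7.72e-06 and 3.45e-05) in the authors' deposited tables. Dct was at -0.61 in the clone, 0.72 after 2 weeks and 0.85 after 5 weeks, lower in the clone than in either (adjusted p = 9.89e-25 and 1.37e-13) in the authors' deposited tables. Tyr, at 0.12 in the clone, was lower there than after 2 weeks (0.95, adjusted p = 2.16e-05) and 5 weeks of UV (1.32, adjusted p = 4.15e-07) in the authors' deposited tables. Pmel did not pass the test of a difference with both SE added, at 0.92 in the clone, 0.696 after 2 weeks and 0.75 after 5 weeks, with differences of 0.22 (SE 0.12) and 0.17 (SE 0.18) in the authors' deposited tables. With 0.5 of each squared SE the first of these passed (adjusted p = 0.0429) and the second did not (adjusted p = 0.466), from the authors' deposited tables. In the stress response list, 11 of 26 genes were lower in the clone than after 2 weeks of UV and 15 of 26 lower than after 5 weeks. Trib3 was at -2.11 in the clone, -0.66 after 2 weeks and 2.41 after 5 weeks in the authors' deposited tables, with a difference of -4.52 between the clone and 5 weeks. Hypoxia-responsive genes were lower in the clone than after 2 weeks of UV for 8 of 20 compared members and than after 5 weeks for 4 of 20. Ero1a, at -0.91 in the clone, was at 0.56 after 2 weeks and 0.99 after 5 weeks in the authors' deposited tables. Interferon genes were higher in the clone than after 2 weeks for 6 of 26 compared members and lower for 1, and none passed against 5 weeks in either direction (1 in each with 0.5 of each squared SE). Sterol synthesis genes were higher in the clone than after 2 weeks for 3 of 23 members and lower for none, and higher than after 5 weeks for 1 and lower for 2. With 0.5 of each squared SE these counts were 7 and 1 at 2 weeks and 1 and 4 at 5 weeks. After 5 weeks of UV itself 8 of the 23 were called higher than in the control. Over genes of SE at most 0.5 with a human namesake, 3.8% were higher at 5 weeks. Fdps, at 1.35 in the clone and 1.29 after 5 weeks, had a difference of 0.058 (SE 0.24) from 5 weeks in the authors' deposited tables.

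**Figure D5:**
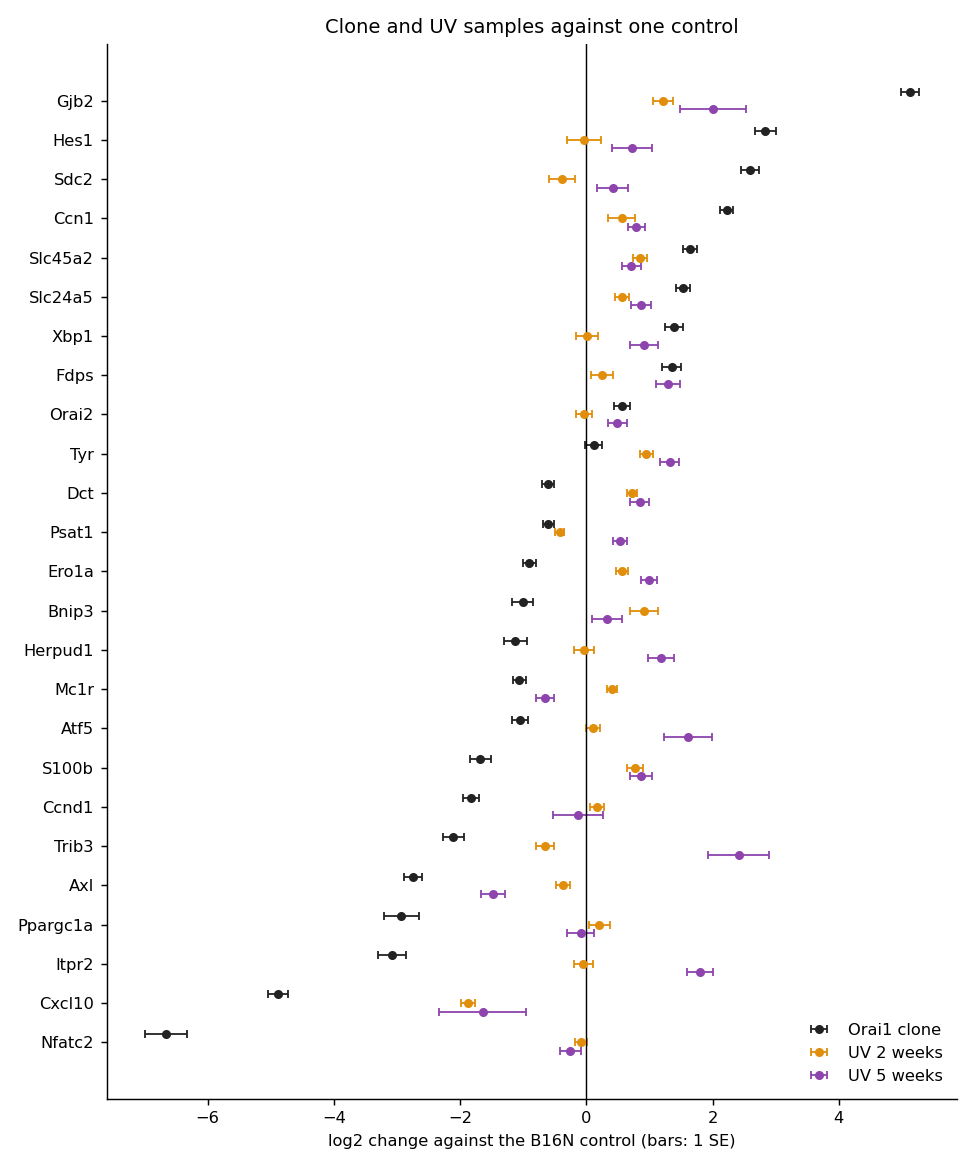
Log2 changes against the shared B16N control (horizontal axis) for 25 genes named in the text, in the Orai1 clone (black), after 2 weeks of UV (orange) and after 5 weeks of UV (purple), with bars of 1 SE. Nfatc2 and Itpr2 are far lower in the clone than in either UV sample, and Tyr and Dct are higher after UV than in the clone.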

How the data were processed

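RNA-seq of the Orai1 clone and the B16N control was analysed, 1 library each, grouped by title, with UV samples at week 2 and week 5 for comparison. The tables that the authors deposited give per gene, as their headers name it, a log2 fold change, a statistic (a score here) and its p-value. The genome build was GRCm38, per the submitters' processing notes, while aligner, counting method and statistical test are not given in the sources used here. Deposited log2 fold changes have the control in the numerator, since all 1357 symbols with a row in a single mouse table were negative, and the sign was turned. Deposited p-values matched a normal two-sided p of that score to within 5.0e-08, so the log2 change divided by the score gave the SE. In the clone's table, 1 row without a symbol and 3 without a p-value were left out. Depth and levels are unknown, so no interval that needs them is given, and the 95% intervals cover only the SE of the deposited test.

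A call was a Benjamini-Hochberg adjusted p under 0.05 over 15041 rows. Differences from UV used a normal test with both SE added in squares and the same adjustment. Named genes were the 15 largest rises and 15 largest falls of SE at most 1, the 10 smallest p in each direction, measured store-operated genes and up to 6 called members per list by size of change. Further members, among them genes that did not pass, are named to show both directions, chosen after their values were seen. The 55 lists, the members and these rules were chosen with earlier results of these data known, and 12 gene families and 7 X stretches after the values were seen. Alternatives were fold minimums of 1.5 and 4, an adjusted p under 0.01, SE limits of 0.5 and 0.3, shared symbols left out or kept, centred changes, 0.5 of each squared SE, and runs of 100 genes. Calling and difference test were tested on simulated data with 200 changed genes. The noise was drawn from the deposited SE, so this checks the calculation and not whether those SE are right. The 2 human tables were not used. Python 3.11.15, numpy 2.4.6, pandas 2.3.3, scipy 1.17.1 and matplotlib 3.10.9 were used. Values of some genes are not reported here.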

Additional observations from a re-analysis of the deposited data

How the results depend on the processing

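The count of 1021 genes changed at least 2-fold was 2049 with a fold minimum of 1.5, 381 with a minimum of 4 and 449 among rows of SE at most 0.3, and stayed within 1.5 times its value under the other 4 alternatives (713 to 1025). Without a fold minimum, the 5 alternatives gave 2344 to 3335 called genes against 3305. The share higher among genes called with the 2-fold minimum was 56.9%, and 46.3% among rows of SE at most 0.3. With 0.5 of each squared SE in the test of a difference, 2636 genes differed between the clone and 2 weeks of UV against 1351, and 1557 between the clone and 5 weeks against 635. Of 261 genes under the naming rule, 4 were no longer called with changes centred (Hk1, Mef2a, Npc1 and Scd1) and 38 not at an adjusted p under 0.01. Directions were not put to a test, since these settings kept each log2 change or only set the median of -0.019 to 0. Of 110 counts of list members called in a direction, 18 moved by over 1.5 times at an SE of at most 0.5 (antigen presentation had 1 higher in place of 3), 21 with shared symbols kept and 4 with changes centred. The median of X-namesake genes was -0.51 at an SE of at most 0.3 against -0.44. The lowest median of 50 neighbours was -0.73 at that limit and -0.59 in runs of 100, against -0.63, and the highest 0.51 and 0.46 against 0.55. No paired analysis was possible because each group had 1 library. Replicates could not be left out for the same reason. The depth of the libraries is unknown, so what it limits was not measured, and Orai1 is among the genes not analysed here.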

Other observations

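Other gene families were examined after the values had been seen, so their counts describe the clone and test nothing. Of 14 measured genes of the Notch pathway 4 were higher and 3 lower. The receptor gene Notch1 (3.11, SE 0.58) and the target Hes1 (2.83, SE 0.16) were higher, the ligand gene Jag1 (-1.36, SE 0.21) lower, and the target Hey1 higher with an SE above 1 (adjusted p = 0.0416) in the authors' deposited table. Of 16 glutathione transferase genes, which encode enzymes of detoxification, 6 were higher and none lower, led by Gstm4 (2.997, SE 0.51), Mgst3 (2.96, SE 0.43) and Hpgds (2.08, SE 0.16) in the authors' deposited table. After 5 weeks of UV 8 of the 16 were called higher and none lower, with a median of 1.24 against 0.27 in the clone. Over genes of SE at most 0.5 with a human namesake, 3.8% were higher at 5 weeks and 14.5% in the clone. Genes of G protein subunits and RGS proteins had 6 of 25 higher and 6 lower, with the gamma subunit genes Gng11 (3.31, SE 0.26) and Gng2 (3.21, SE 0.69) and the RGS gene Rgs2 (1.77, SE 0.45) higher and Gnao1 (-1.28, SE 0.37) lower in the authors' deposited table. In the cyclic nucleotide group, Prkg2 stood beside a rise of the Ca2+- and calmodulin-stimulated phosphodiesterase gene Pde1c (4.002, SE 0.97) in the authors' deposited table.

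Rab GTPase genes, which direct vesicle traffic, had 12 of 42 lower and 4 higher, with Rab39b (-1.64, SE 0.21), Rab4a (-1.29, SE 0.396) and Rab28 (-0.76, SE 0.13) among the falls and Rab17 (2.81, SE 0.65) and Rab29 (0.91, SE 0.28) among the rises in the authors' deposited table. Histone genes had 9 of 55 higher and 1 lower, with H2bc4 (1.53, SE 0.23) and the linker histone gene H1f2 (1.09, SE 0.14) among the rises in the authors' deposited table. Many histone genes are near-identical, so single members are uncertain. Of 5 measured genes of the Xlr and Rhox families 4 were lower. Xlr3b (adjusted p = 2.65e-06) and Xlr3c (adjusted p = 4.77e-20) were so at an SE above 1, beside Xlr3a and Rhox5 (-4.01, SE 0.91), in the authors' deposited table, and the 3 Xlr3 genes are close copies of one another. The tubulin genes Tubb3 (-1.67, SE 0.19) and Tubb2b (-1.36, SE 0.204), characteristic of nerve cells, were lower while Tuba4a (4.79, SE 0.48) was higher in the authors' deposited table. Of 306 measured Zfp genes 36 (11.8%) were lower and 15 (4.902%) higher, against 13.9% and 12.0% of all genes with values of their own, and Zfp521 (-2.79, SE 0.28) and Zfp799 (-3.04, SE 0.43) fell by over 2 on the log2 scale by the authors' deposited table.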
